A study of Homo sapiens with 6 samples.

Results

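Antisense-named genes are genes whose symbol is that of another gene followed by -AS and a digit, given because they lie on the opposite DNA strand at that gene. They were described here, with their sense partners, in DU145, a human prostate carcinoma cell line; a sense partner is the gene whose symbol stands before -AS. Cells carried no engineered allele named in the labels. They were treated for 24 h with DMSO, the solvent control, or with 5 µM OTI-611, a small molecule directed against the chromatin remodeller CHD1L. Each group had 3 libraries, and nothing in the labels ties them to separate cultures, so the p-values here reflect spread between libraries that may be technical. The table lists 32692 genes, and 1254 of them have an antisense name. The 361 with a mean of at least 0.5 RPKM (reads per kilobase of exon, scaled to the mapped reads of the library) over 5 libraries are the members. The other 893 lay below that level, 37 of them at 0 in all 5 libraries. The 5 libraries are DMSO 2, DMSO 3 and OTI-611 1, 2 and 3; DMSO 1 was deposited in whole numbers only and entered a separate setting. The members were chosen by level, and the difference between groups was not used. Because the mean spans both groups, 54 members reached 0.5 RPKM in the DMSO mean alone and 14 in the OTI-611 mean alone. Just below the limit were TMC3-AS1 at 0.496, ENTPD1-AS1 at 0.497 and PLBD1-AS1 at 0.499 RPKM. Just above it were HMGN3-AS1 at 0.504, NAPA-AS1 at 0.506 and INO80-AS1 at 0.510 RPKM.

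Many mammalian promoters fire in both directions, and much of the RNA made against the coding strand is capped but non-coding. Such RNA is often short-lived, because early termination and the nuclear RNA exosome, a 3′ to 5′ exonuclease complex, remove it. Antisense RNA is known to act on its own locus in some cases, on other RNAs in others, and to have no known role in many. A change in an antisense RNA can accompany a change of its partner in the same direction, where a promoter region is shared, or in the other.

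The GENCODE annotation (release 29, GRCh38) classed 291 members as antisense, 30 as lincRNA (long intergenic non-coding RNA), 29 as processed transcript and 4 as bidirectional promoter RNA. A partner row was present for 355 members and held 350 different genes, of which 349 were protein-coding. ADIRF-AS1 and 5 members named for a whole HOX cluster had none. Positions were available for 354 pairs. The most frequent arrangement was a head-to-head overlap, in which both starts lie in the shared stretch and the first parts overlap, with 142 pairs. The antisense gene lay inside the partner in 91 pairs and overlapped it tail to tail in 73. In 23 pairs the partner lay inside the antisense gene, and 20 were divergent without overlap. A further 4 were convergent without overlap, and 1, FAM131B-AS2, was annotated on the strand of its partner. Exon bases were shared with the partner in 246 of the 354 pairs, where the median share was 14.2% of the antisense exon bases and the highest 85.2%. The labels name no step that marks strand, so reads of a gene and its antisense partner cannot be told apart where exons are shared, nor can reads of unspliced partner RNA that crosses an antisense exon. For 87 of 360 members with a position, no exon base was shared with any other annotated gene.

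The sequences below show how close the paired starts can be. RefSeq promoter windows (GRCh38.p14), which run from 250 bases before to 50 bases after a start, were found for 271 members and for both genes of 245 pairs. In 84 of these pairs the 2 windows overlapped, with a median of 200.5 shared bases. Printed are the antisense windows of 4 such pairs with an antisense mean of at least 3 RPKM, chosen after their values were seen to show 2 pairs that moved apart, 1 that rose and 1 that fell. Each is printed 5′ to 3′ on the antisense strand, and capitals mark the bases that are also in the window of the partner.
KMT2E-AS1: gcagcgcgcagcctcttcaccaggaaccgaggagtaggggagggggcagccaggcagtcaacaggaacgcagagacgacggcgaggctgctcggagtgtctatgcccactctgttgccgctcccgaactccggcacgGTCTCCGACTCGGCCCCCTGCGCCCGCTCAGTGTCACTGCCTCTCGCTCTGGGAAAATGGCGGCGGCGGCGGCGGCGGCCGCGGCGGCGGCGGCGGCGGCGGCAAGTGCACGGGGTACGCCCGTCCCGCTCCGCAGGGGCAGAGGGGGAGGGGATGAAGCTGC
HERPUD2-AS1: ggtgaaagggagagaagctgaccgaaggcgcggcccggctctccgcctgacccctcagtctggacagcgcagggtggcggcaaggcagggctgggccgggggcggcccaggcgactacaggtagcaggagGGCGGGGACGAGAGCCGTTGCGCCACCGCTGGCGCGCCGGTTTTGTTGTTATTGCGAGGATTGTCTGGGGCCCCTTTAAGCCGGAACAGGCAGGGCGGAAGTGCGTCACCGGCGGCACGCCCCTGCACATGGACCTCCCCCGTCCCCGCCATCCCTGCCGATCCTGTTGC
CD63-AS1: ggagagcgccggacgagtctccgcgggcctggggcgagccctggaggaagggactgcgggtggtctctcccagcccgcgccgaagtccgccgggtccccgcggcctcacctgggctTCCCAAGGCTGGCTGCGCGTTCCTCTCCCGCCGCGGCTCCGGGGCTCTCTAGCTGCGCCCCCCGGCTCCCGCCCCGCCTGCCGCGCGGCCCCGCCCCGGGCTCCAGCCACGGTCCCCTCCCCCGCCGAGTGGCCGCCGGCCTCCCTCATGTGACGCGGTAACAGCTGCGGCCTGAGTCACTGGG
RUSC1-AS1: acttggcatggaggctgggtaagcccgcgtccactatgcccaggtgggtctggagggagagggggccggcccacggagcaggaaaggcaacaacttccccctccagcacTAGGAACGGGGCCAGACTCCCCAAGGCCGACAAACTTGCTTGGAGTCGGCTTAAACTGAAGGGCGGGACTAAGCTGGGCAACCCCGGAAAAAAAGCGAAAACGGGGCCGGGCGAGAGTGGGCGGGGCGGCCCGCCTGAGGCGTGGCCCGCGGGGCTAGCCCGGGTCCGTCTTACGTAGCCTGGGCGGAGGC
The KMT2E-AS1 window lies at chr7:105014092-105014391 on the minus strand and shares 163 bases with the window of KMT2E. The HERPUD2-AS1 window lies at chr7:35694956-35695255 on the plus strand and shares 170 bases with that of HERPUD2. The CD63-AS1 window lies at chr12:55728844-55729143 on the plus strand and shares 184 bases with that of CD63. The RUSC1-AS1 window lies at chr1:155323796-155324095 on the minus strand and shares 191 bases with that of RUSC1. The RefSeq starts of these pairs are 64, 71, 85 and 92 bases apart. G and C make up 72.3%, 69.7%, 77.7% and 67.0% of the 4 windows.

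KMT2E-AS1 fell while its partner rose. KMT2E-AS1 measured 5.34 and 5.47 RPKM in DMSO and 2.96, 3.25 and 2.64 in OTI-611, so the groups did not overlap. The log2 difference, OTI-611 minus DMSO on the log2(RPKM + 0.5) scale used throughout, was -0.78 ± 0.0877 (SE; limma adjusted p = 0.000345). KMT2E, which encodes a PHD- and SET-domain chromatin protein, measured 8.51 and 8.55 in DMSO and 10.9, 11.3 and 11.0 in OTI-611, a log2 difference of 0.36 (limma adjusted p = 0.000377). HERPUD2-AS1 measured 5.04 and 4.84 RPKM in DMSO and 2.71, 2.87 and 2.26 in OTI-611, a log2 difference of -0.81 (limma adjusted p = 0.000485). HERPUD2, a homolog of the endoplasmic reticulum stress protein HERPUD1, measured 14.6 and 14.8 in DMSO against 19.0, 17.5 and 17.2 in OTI-611, a log2 difference of 0.27 (limma adjusted p = 0.00342). Both antisense genes thus fell where the partner reading the other way from nearly the same bases rose. The test of the antisense-to-partner log ratio gave -1.14 for the KMT2E pair and -1.08 for the HERPUD2 pair (limma adjusted p = 0.000316 and 0.000409).

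The CD63 and RUSC1 pairs moved as pairs. CD63-AS1 measured 7.08 and 7.38 RPKM in DMSO and 12.6, 10.4 and 11.4 in OTI-611, a log2 difference of 0.63 (limma adjusted p = 0.000571). CD63, a tetraspanin of late endosomes and exosomes, measured 261 and 258 in DMSO and 352, 357 and 357 in OTI-611, a log2 difference of 0.45 (limma adjusted p = 2.06e-05). RUSC1-AS1 measured 6.88 and 8.58 in DMSO and 4.55, 5.14 and 4.67 in OTI-611, a log2 difference of -0.63 (limma adjusted p = 0.00152). RUSC1, which encodes a signalling adaptor, measured 19.2 and 17.5 against 14.6, 14 and 15.0, a log2 difference of -0.32 (limma adjusted p = 0.00205). No library of one group reached the other group's range in any of these 4 genes, which were chosen after their values were seen. The same held for 76.9% of all genes tested. The log ratios of these pairs, 0.17 and -0.31, did not pass the test (limma adjusted p = 0.130 and 0.120).

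Most members were low. Their median was 1.14 RPKM, 202 reached 1 RPKM, 71 reached 3 and 9 reached 10. With the read depth estimated from the step size of low values (30670000 and 32410000 in DMSO, 37290000 to 37740000 in OTI-611), the median member had 79.1 reads in a typical library, and 53 of 360 had fewer than 20. Partners had a median of 8.59 RPKM and lay above the antisense gene in 271 of 355 pairs, with a median partner-to-antisense ratio of 5.73. The partner was at least 10 times higher in 128 pairs and the antisense gene in 33. Across pairs the 2 levels were nearly unrelated, with Spearman's rho of 0.05 over 355 pairs that share the same libraries. Summed over all members, the level was 914 and 920 RPKM in the DMSO libraries and 714 to 768 in the OTI-611 libraries. Summed over the 350 partners it was 7508 and 7551 in DMSO and 8013 to 8037 in OTI-611.

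**Figure D1:**
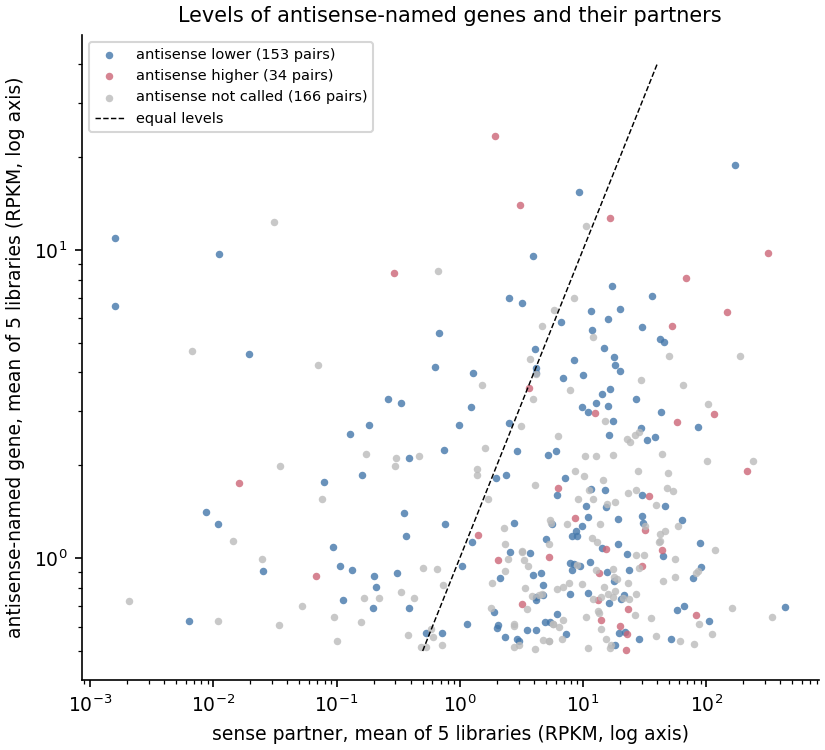
Mean level over 5 libraries of each antisense-named gene (vertical log axis, RPKM) against its partner (horizontal log axis, RPKM), 1 point per pair, coloured by the antisense call; 2 pairs with a partner at 0 are left out. Most points lie to the right of the dashed line of equal levels: the partner was higher in 271 of 355 pairs.

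The 9 members of at least 10 RPKM were mixed in direction, and their partners ranged from undetected to abundant. FGD5-AS1, a widely expressed long non-coding RNA, was the highest, with 36.9 and 37.6 RPKM in DMSO and 40.6, 40.1 and 38.9 in OTI-611. Its log2 difference was 0.10 (limma adjusted p = 0.0378), whereas its partner FGD5, a gene known from endothelial cells, was listed at 0 in every library. The call on FGD5-AS1 was lost when DMSO 2, DMSO 3, OTI-611 1 or OTI-611 2 was left out (limma adjusted p = 0.0811 to 0.180). THAP9-AS1 measured 15.8 and 16.9 in DMSO and 27.5, 29 and 27.7 in OTI-611, a 1.72-fold rise (log2 difference 0.76, limma adjusted p = 2.61e-05). Its partner THAP9, a gene derived from a DNA transposase, stayed between 1.79 and 2.07 in all 5 libraries, and the log ratio rose by 0.75 (limma adjusted p = 0.00115). THAP9 passed the test after quantile normalization (limma adjusted p = 0.0339). TRIM52-AS1 and TRIM52, a divergent pair whose RefSeq starts lie 69 bases apart, went in opposite directions. TRIM52-AS1 measured 12.1 and 12.2 in DMSO and 15.3, 15.1 and 15.0 in OTI-611, while TRIM52 measured 4.04 and 4.01 in DMSO and 2.47, 2.58 and 2.29 in OTI-611. The log ratio differed by 0.92 (limma adjusted p = 0.000394).

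Of the other 6 of these members, DLGAP1-AS2 had the largest difference. PSMA3-AS1 measured 20.5 and 22.8 RPKM in DMSO and 17.5, 16.9 and 16.3 in OTI-611, and PSMA3, a subunit of the 20S proteasome, fell further, from 221 and 227 to 140, 135 and 137. ARRDC1-AS1 measured 16.9 and 16.7 against 14.5, 15.3 and 13.5 (log2 difference -0.22, limma adjusted p = 0.0141), a call lost without DMSO 2 or DMSO 3 (limma adjusted p = 0.0749 and 0.0582) and after rescaling to the median log ratio (limma adjusted p = 0.138). NOP14-AS1 measured 10.2 and 9.86 against 14.5, 15.1 and 13.9 (log2 difference 0.51, limma adjusted p = 0.000153), and its partner NOP14, which encodes a ribosome assembly factor, had a log2 difference of 0.05 (limma adjusted p = 0.279, or 0.00957 after rescaling). OIP5-AS1, known as cyrano, measured 11.2 and 11.5 against 13.9, 12.9 and 11.8 and did not pass the test (limma adjusted p = 0.0794), but did without OTI-611 3 (limma adjusted p = 0.0166) and after quantile normalization or rescaling (limma adjusted p = 0.0286 and 0.00974). URB1-AS1 measured 11.5 and 11.8 against 12.9, 12.5 and 11.1, and its groups overlapped (limma adjusted p = 0.450, or 0.0457 after rescaling). DLGAP1-AS2 measured 16.8 and 14.1 in DMSO and 7.80, 8.53 and 7.22 in OTI-611, a 1.97-fold fall (limma adjusted p = 0.00021). DLGAP1-AS1, at the same locus, measured 9.24 and 8.53 against 5.13, 5.28 and 4.61 (log2 difference -0.77, limma adjusted p = 0.000158), while DLGAP1 itself, which encodes a postsynaptic scaffold protein, was listed at 0 in 4 of the 5 libraries.

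More antisense-named genes fell than rose, and those under 3 RPKM did so about as often as other genes of that level. Of 361 members, 35 rose, 159 fell and 167 did not pass the test, so 53.7% were called, against 63.6% of all 14249 genes tested. These counts include the 54 members that reached 0.5 RPKM in the DMSO mean alone and the 14 in the OTI-611 mean alone. The limit itself favours the direction of such members, and all genes tested passed the same limit. VLDLR-AS1, GTF3C2-AS1 and HMGN3-AS1 passed through OTI-611 alone, and FAM222A-AS1, HOXC-AS2 and HOXA-AS2 through DMSO alone. Among all genes tested 23.2% rose and 40.4% fell, and among members 9.70% rose and 44.0% fell. The median log2 difference was -0.31 for members, -0.12 for all genes tested and -0.03 for the 296 partners tested, of which 98 rose and 116 fell. A low level goes with fewer rises: of the 5074 genes tested with a mean under 3 RPKM, 49.8% were called, 10.4% rising and 39.4% falling. The 290 members under 3 RPKM were close to that background, with 25 (8.62%) rising and 117 (40.3%) falling, and so were other long non-coding genes in that range, of which 52.2% were called, 7.47% rising and 44.7% falling. The medians in this range were -0.30 for members and -0.26 for all genes. Protein-coding genes in that range were called in 55.4% of cases, 11.3% rising and 44.0% falling. Members of at least 3 RPKM fell in a larger share: of 71, 10 rose (14.1%), 42 fell (59.2%) and 19 missed the threshold, and their median was -0.33. Of the 9175 genes tested in that range 71.2% were called, 30.3% rising and 40.9% falling, with a median of -0.06. Of 144 other long non-coding genes in that range 75.7% were called, 25.0% rising and 50.7% falling, with a median of -0.26. The difference between members and these genes was not tested.

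The balance between rises and falls depends on how libraries are put on one scale. Rescaling each library to the median log ratio gave 46 members higher and 128 lower, with 4471 and 4393 of all genes. Quantile normalization gave 70 members higher and 101 lower, with 4377 and 4331 of all genes, against 3306 and 5752 as deposited. In the members under 3 RPKM, quantile normalization gave 57 higher and 65 lower. In those of at least 3 RPKM it gave 13 higher and 36 lower (18.3% and 50.7%), against 35.9% and 34.5% of all genes in that range, and rescaling gave 13 and 35 (18.3% and 49.3%), against 40.7% and 30.5%. Both shift the median of all genes from -0.12 to 0.00, so falls smaller than that shift are relative to the deposited scale. Members whose libraries did not overlap between groups numbered 262, 54 higher and 208 lower, or 72.6%, against 76.9% of all genes tested, 28.5% higher and 48.3% lower. Members with at least 20 estimated reads had 33 rises and 147 falls among 307, and those with fewer had 2 and 12 among 53.

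**Figure D2:**
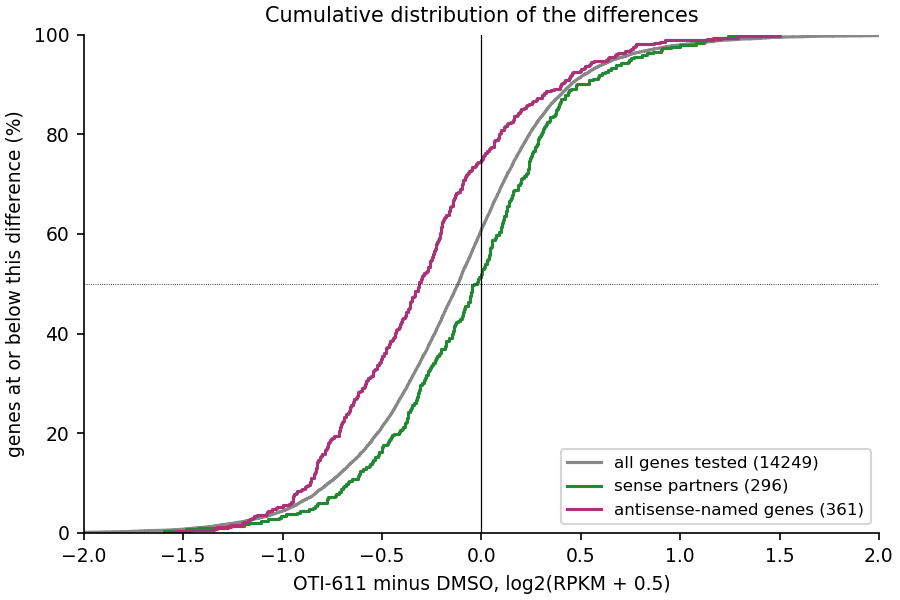
Share of genes at or below each log2 difference (OTI-611 minus DMSO, log2 of RPKM + 0.5) for 361 antisense-named genes, 296 partners and 14249 genes tested; the dotted line marks 50%. The antisense curve crosses it at -0.31, the partner curve at -0.03 and that of all genes at -0.12.

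The 10 largest rises ran from genes of few reads to THAP9-AS1, described above, and 6 of the 10 lie inside their partner. NADK2-AS1, inside NADK2 on chromosome 5 and sharing no exon base with it, measured 1.04 and 1.24 RPKM in DMSO and 4.69, 4.01 and 3.75 in OTI-611. This was a 3.64-fold rise (log2 difference 1.50 ± 0.111 SE, limma adjusted p = 6.22e-05), and NADK2, the mitochondrial NAD kinase, rose 1.25-fold. VLDLR-AS1 measured 0.353 and 0.402 in DMSO and 1.45, 1.48 and 1.35 in OTI-611, a 3.78-fold rise (log2 difference 1.13, limma adjusted p = 0.000213). VLDLR, the very low density lipoprotein receptor, measured 5.88 and 6.24 in DMSO and 4.66, 4.63 and 5.03 in OTI-611, a fall (limma adjusted p = 0.00437). The VLDLR pair thus moved apart, by 1.45 in the log ratio (limma adjusted p = 0.000334). EPB41L4A-AS1 measured 5.55 and 5.35 in DMSO and 11.0, 10.5 and 9.55 in OTI-611 (log2 difference 0.87, limma adjusted p = 7.41e-05). It shares 49.6% of its exon bases with EPB41L4A, which was itself below 0.5 RPKM in all 5 libraries.

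HIF1A-AS3 and ETV5-AS1 rose together with their partners. HIF1A-AS3 measured 3.87 and 4.04 RPKM in DMSO and 8.30, 8.66 and 6.62 in OTI-611, a 1.99-fold rise (limma adjusted p = 0.0005). HIF1A, the oxygen-regulated subunit of hypoxia-inducible factor 1, measured 114 and 116 in DMSO and 156, 173 and 173 in OTI-611, and the log ratio of the pair, 0.36, did not pass (limma adjusted p = 0.0579). ETV5-AS1 measured 0.698 and 1.27 in DMSO and 2.06, 2.25 and 1.7 in OTI-611. ETV5, an ETS-family transcription factor, measured 19.6 and 19.2 in DMSO and 44.6, 42.7 and 45.2 in OTI-611, a 2.27-fold rise against 2.04-fold for its antisense gene. ATP1B3-AS1 measured 1.73 and 0.984 in DMSO and 3.49, 4.91 and 3.59 in OTI-611 (log2 difference 1.29, limma adjusted p = 0.0016), whereas ATP1B3, a sodium pump subunit, was at 113 to 120 (limma adjusted p = 0.443, or 0.0118 after rescaling). LAMC1-AS1 measured 2.31 and 1.35 in DMSO and 3.19, 3.52 and 3.48 in OTI-611 (limma adjusted p = 0.00692), and LAMC1, the laminin gamma 1 chain, between 56.0 and 59.8. FLNC-AS1 and PRKAR1B-AS1 complete the 10 largest rises with THAP9-AS1. Both rested on few reads in DMSO, with an estimated 3 and 11 for FLNC-AS1 and 4.55 and 15.6 for PRKAR1B-AS1. Of these 10 genes, ETV5-AS1, ATP1B3-AS1, LAMC1-AS1, NADK2-AS1, EPB41L4A-AS1 and PRKAR1B-AS1 lie inside the partner.

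The 10 largest falls included 5 genes head to head with their partner, led by TMEM147-AS1, and 3 of the HOX clusters. TMEM147-AS1 measured 5.37 and 5.11 RPKM in DMSO and 1.55, 1.58 and 1.32 in OTI-611, a 3.53-fold fall (log2 difference -1.54 ± 0.0895 SE, limma adjusted p = 2.71e-05). TMEM147, an endoplasmic reticulum membrane protein of the translocon, measured 37.4 and 39.4 in DMSO and 44.9, 46.7 and 44.6 in OTI-611 (log2 difference 0.24, limma adjusted p = 0.0015), so the antisense gene fell while the partner rose. WARS2-AS1 measured 5.40 and 5.84 in DMSO and 2.39, 1.78 and 1.68 in OTI-611, a 2.88-fold fall (limma adjusted p = 0.000186), beside WARS2, the mitochondrial tryptophanyl-tRNA synthetase, at 13.5 to 14.9 in all 5 libraries. The log ratio of the WARS2 pair fell by 1.36 (limma adjusted p = 0.000832).

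In the PRR7, ANXA2R, TMPO and FAM222A pairs both genes fell. PRR7-AS1 measured 6.90 and 6.58 RPKM in DMSO and 2.3, 2.16 and 1.94 in OTI-611, and PRR7 5.75 and 4.85 against 3.08, 3.88 and 3.08. ANXA2R-AS1 measured 8.56 and 9.81 in DMSO and 3.40, 4.11 and 3.18 in OTI-611, and ANXA2R, the annexin A2 receptor gene, 8.19 and 7.06 against 5.91, 6.35 and 5.38. TMPO-AS1 measured 2.1 and 1.8 in DMSO and 0.607, 0.646 and 0.457 in OTI-611, a 3.42-fold fall, and TMPO, which encodes the LAP2 proteins of the nuclear lamina, fell 1.29-fold from a mean of 104 ± 2.61 (SD, n = 2) to 80.5 ± 0.723 (SD, n = 3). ANXA2R itself did not pass without DMSO 2 (limma adjusted p = 0.0916) or after rescaling (limma adjusted p = 0.0514). In these 3 pairs the antisense gene fell further than the partner, by -0.87, -0.91 and -0.83 in the log ratio (limma adjusted p = 0.00327, 0.00218 and 0.000909). FAM222A-AS1 measured 0.972 and 1.24 in DMSO and 0.215, 0.184 and 0.243 in OTI-611, and FAM222A 0.866 and 0.937 against 0.225, 0.320 and 0.316, with no call on the log ratio (limma adjusted p = 0.177). Both genes of the FAM222A pair reached 0.5 RPKM in the DMSO mean alone, so the limit for testing favours their direction. With DMSO 1 in the fit neither FAM222A-AS1 nor FAM222A passed (limma adjusted p = 0.335 and 0.572); DMSO 1 lists both at 0, as its values hold whole numbers only. PRR7 did not pass in either fit with DMSO 1 (limma adjusted p = 0.152 and 0.190). MYO16-AS1 measured 3.15 and 2.71 in DMSO and 0.878, 1.29 and 0.822 in OTI-611 (limma adjusted p = 0.000623), while MYO16, a myosin gene, was below 0.5 RPKM throughout.

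**Figure D3:**
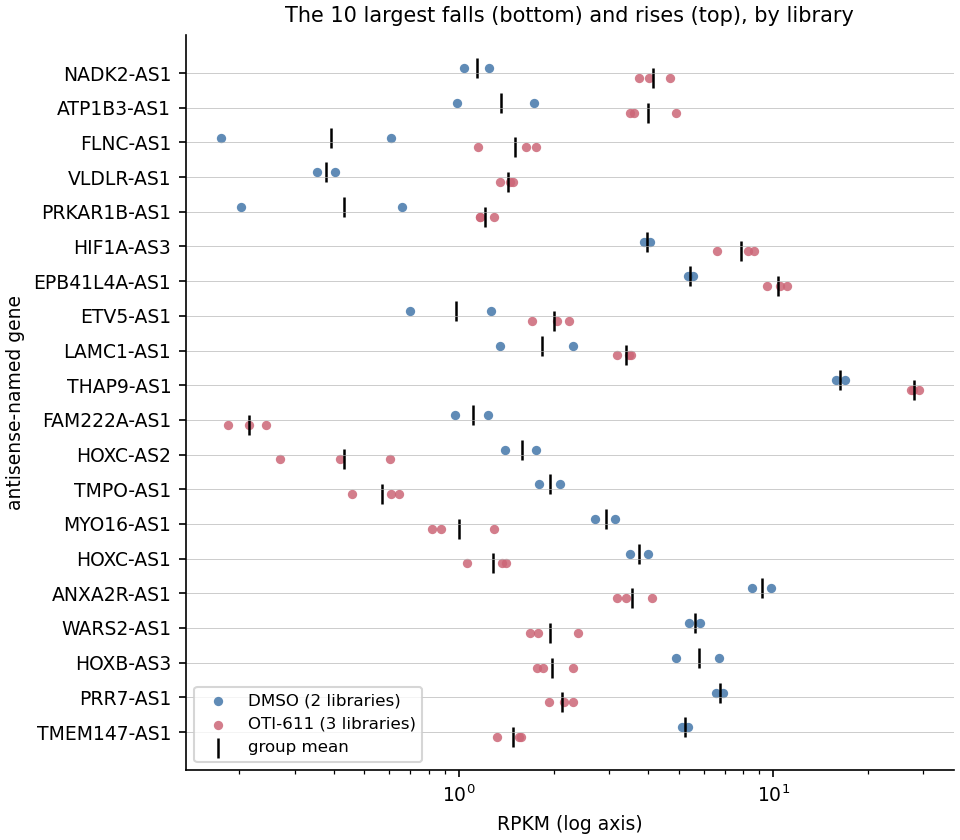
Level in each library (log axis, RPKM) of the 10 antisense-named genes with the largest rises and the 10 with the largest falls, with 2 DMSO points, 3 OTI-611 points and a bar at each group mean. The groups do not overlap in any of the 20 genes, which the choice required; DMSO values of FLNC-AS1, PRKAR1B-AS1 and ETV5-AS1 spread most.

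HOXB-AS3, HOXC-AS1, HOXC-AS2 and HOXA-AS2 fell, and HOXB-AS1 did not pass the test. HOX genes encode homeodomain transcription factors that set position along the body axis, and their clusters carry antisense transcripts named for the whole cluster. HOXB-AS3 measured 4.91 and 6.72 RPKM in DMSO and 1.77, 2.3 and 1.85 in OTI-611 (log2 difference -1.34, limma adjusted p = 0.000317). HOXC-AS1 measured 3.51 and 3.99 against 1.37, 1.42 and 1.06, and HOXC-AS2 measured 1.76 and 1.40 against 0.269, 0.602 and 0.418 (log2 differences -1.26 and -1.17, limma adjusted p = 0.000166 and 0.00159). HOXA-AS2 measured 1.07 and 1.05 against 0.317, 0.403 and 0.431 (log2 difference -0.83, limma adjusted p = 0.00189). HOXB-AS1 measured 1.05 and 1.57 against 1.36, 1.49 and 0.821, and its groups overlapped (limma adjusted p = 0.774). The coding genes of each cluster were counted after the antisense values were seen. Of all genes tested, 23.2% rose and 40.4% fell. In the HOXC cluster 5 of 7 coding genes tested fell and 0 rose, among them HOXC9, which measured 5.63 and 6.12 in DMSO and 2.74, 3.45 and 3.15 in OTI-611. In the HOXB cluster 2 of 8 rose and 2 fell, and in the HOXA cluster 1 of 7 rose and 3 fell. After quantile normalization these counts were 4 and 0 for HOXB, 2 and 0 for HOXA and 0 and 4 for HOXC. Leaving out DMSO 3 gave 0 rises and 3 falls in HOXC, and leaving out DMSO 2 gave 1 fall in HOXA and 0 in HOXB.

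A pair in which both genes changed more often changed in the same direction, at about the rate of other opposite-strand neighbours. Both genes of 300 pairs were tested, and both were called in 126. Of these, 63 fell together, 19 rose together, 36 had a falling antisense gene with a rising partner and 8 the reverse. The same direction made up 82 of 126, or 65.1%, against 62.2% of 1702 other pairs of tested genes that lie on opposite strands and overlap or lie within 5 kb. It made up 24 of 32 (75.0%) where at least 20% of antisense exon bases were shared with the partner, and 20 of 32 (62.5%) where none were. By arrangement it was 21 of 25 tail to tail, 38 of 61 head to head and 16 of 29 inside the partner. It was 4 of 4 with the partner inside and 2 of 6 in divergent pairs. These differences were not tested. Without DMSO 2 the pairs with the same and the opposite direction numbered 48 and 19, and without DMSO 3 they numbered 54 and 30. With DMSO 1 in the fit they numbered 47 and 29. The antisense gene alone was called in 32 pairs, the partner alone in 92 and neither in 50. Pearson's r between the log2 differences was 0.24 and Spearman's rho 0.23 over the 300 pairs, which share libraries. Antisense genes of falling partners rose in 8 of 120 pairs and fell in 63, and those of rising partners rose in 19 of 98 and fell in 36.

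The log ratio of antisense to partner was called in 151 of 300 pairs, or 50.3%, against 54.8% of all 4294 opposite-strand pairs tested. Without the pairs of an antisense gene and its named partner the share was 55.2%. Those other pairs can still hold an antisense-named gene beside another neighbour. The log ratio of antisense to partner fell in 115 and rose in 36, with a median of -0.22. Other pairs have no antisense side, so this split has no background among them. Partners were the higher gene in 271 of 355 pairs. Under 3 RPKM 10.4% of all genes rose and 39.4% fell, and from 3 RPKM up 30.3% and 40.9%. Members that reached 0.5 RPKM in 1 group mean alone were kept. The part of level and limit in the split was not tested. The ratio is taken within each library, so a library-wide scale factor nearly cancels, and rescaling to the median left 151 pairs called. The pseudocount of 0.5 reduces the differences of low genes more than those of their higher partners.

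**Figure D4:**
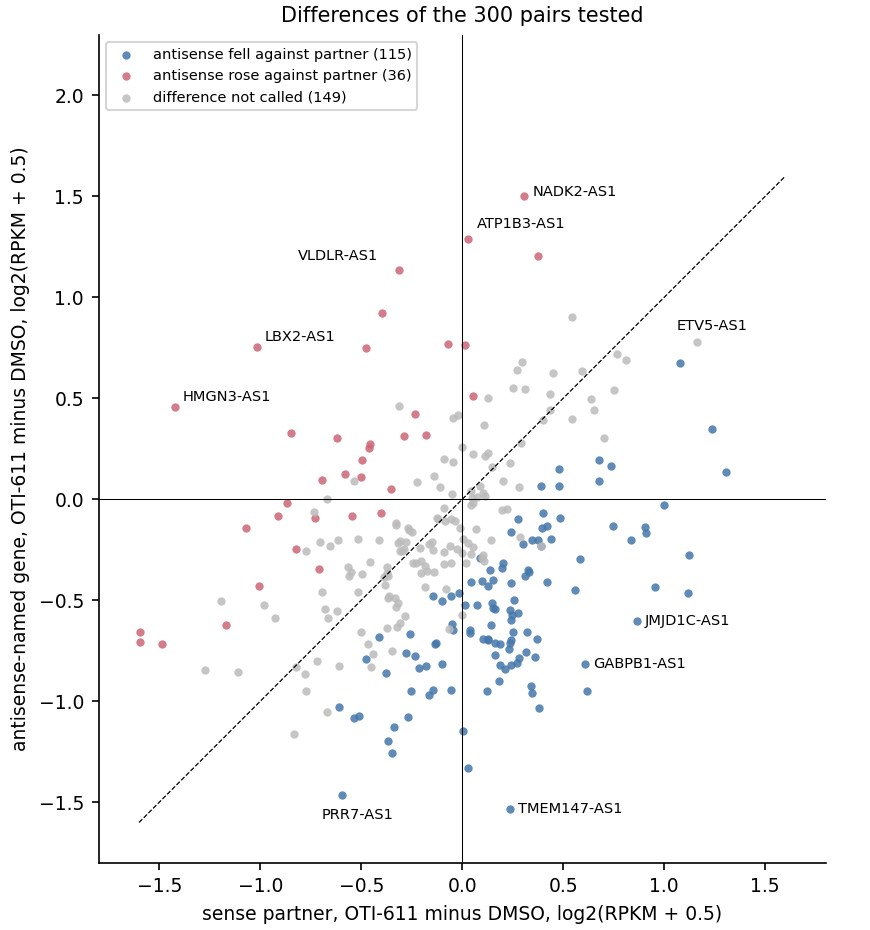
Log2 difference (OTI-611 minus DMSO, log2 of RPKM + 0.5) of each antisense-named gene against that of its partner for 300 pairs, coloured by the call on their log ratio; the dashed line marks equal differences. The 115 pairs in which the antisense gene fell against its partner lie below the line and the 36 in which it rose lie above.

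Pairs moving in opposite directions included both orders. LBX2-AS1 measured 2.14 and 2.61 RPKM in DMSO and 4.52, 4.13 and 4.36 in OTI-611, while LBX2, a homeobox gene, measured 5.59 and 5.29 in DMSO and 2.51, 2.62 and 2.19 in OTI-611. The antisense gene was thus below its partner in DMSO and above it in OTI-611, and the log ratio changed by 1.77 (limma adjusted p = 0.00027). The exons of LBX2-AS1 share 31.2% of their bases with LBX2. HMGN3-AS1 measured 0.319 and 0.322 in DMSO and 0.542, 0.704 and 0.634 in OTI-611, whereas HMGN3, a nucleosome-binding protein, fell 2.74-fold from 36.3 and 35.8 to 14, 12 and 13.5. The call on HMGN3-AS1 was lost without DMSO 2, DMSO 3, OTI-611 2 or OTI-611 3 (limma adjusted p = 0.0720 to 0.0918) and with DMSO 1 added (limma adjusted p = 0.134). GTF3C2-AS1 measured 0.216 and 0.351 in DMSO and 0.916, 0.635 and 0.905 in OTI-611, and GTF3C2, a subunit of transcription factor IIIC, 23.6 and 25.0 against 18.6, 16.7 and 16.8. The GTF3C2 locus has a second antisense gene, GTF3C2-AS2, head to head with the partner, which measured 5.25 and 5.93 in DMSO and 3.49, 2.82 and 2.79 in OTI-611. The 2 antisense genes of GTF3C2 therefore differed in direction, with log2 differences of 0.75 and -0.79 (limma adjusted p = 0.00785 and 0.00077).

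In the reverse order, the antisense gene fell beside a rising partner. GABPB1-AS1 measured 1.54 and 1.35 RPKM in DMSO and 0.670, 0.679 and 0.478 in OTI-611, and GABPB1, a subunit of the GABP transcription factor, 7.07 and 7.01 against 11.3, 10.9 and 10.8. JMJD1C-AS1 measured 1.51 and 1.34 in DMSO and 0.783, 0.641 and 0.892 in OTI-611, and JMJD1C, a jumonji-domain protein, 14.6 and 15.5 against 27.1, 28.5 and 28.1. The log ratios of these pairs fell by 1.42 and 1.47 (limma adjusted p = 0.000351 and 0.000323). JMJD1C-AS1 itself did not pass after quantile normalization (limma adjusted p = 0.0824) or with DMSO 1 added (limma adjusted p = 0.0716). GLIPR1-AS1 measured 1.91 and 1.39 in DMSO and 1.01, 1.12 and 1.02 in OTI-611, and GLIPR1 0.202 and 0.276 against 1.10, 0.875 and 1.37. GLIPR1 thus went from below its antisense gene to about its level. GLIPR1 reached 0.5 RPKM in the OTI-611 mean alone, so the limit for testing favours its direction. The call on GLIPR1-AS1 was lost without DMSO 2 or OTI-611 3 (limma adjusted p = 0.132 and 0.0520) and after rescaling or quantile normalization (limma adjusted p = 0.0560 and 0.246). NDUFV2-AS1, PPP1R26-AS1 and ZNF775-AS1 also fell beside rising partners, with log2 differences of -0.45, -0.41 and -0.95 against 0.56, 0.42 and 0.62. ZNF775-AS1 rests on an estimated 17 and 8.99 reads in DMSO and 4.99, 4 and 3 in OTI-611, and did not pass without DMSO 2 (limma adjusted p = 0.0540). NDUFV2-AS1 did not pass without DMSO 2, DMSO 3, OTI-611 2 or OTI-611 3 (limma adjusted p = 0.0753 to 0.147), nor PPP1R26-AS1 without DMSO 2, DMSO 3, OTI-611 1 or OTI-611 3 (limma adjusted p = 0.0588 to 0.114). After rescaling the adjusted p in limma was 0.0965 for NDUFV2-AS1 and 0.0789 for PPP1R26-AS1, and after quantile normalization 0.229 and 0.348. With DMSO 1 added it was 0.0573 and 0.135, and GLIPR1-AS1 did not pass either (limma adjusted p = 0.252).

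On the deposited scale falls outnumbered rises in every arrangement held by at least 20 pairs, though not inside the partner or tail to tail after quantile normalization. The share that fell was 50.7% in head-to-head and 47.8% in partner-inside pairs, 36.3% inside the partner and 35.6% tail to tail. The background was 40.4% falling and 23.2% rising over all genes tested, and 39.4% and 10.4% over those under 3 RPKM. In head-to-head pairs 11 of 142 antisense genes rose and 72 fell, with a median log2 difference of -0.38. Among the divergent pairs 1 of 20 rose and 10 fell, with a median of -0.40. Antisense genes inside their partner rose in 12 of 91 cases and fell in 33, with a median of -0.26, and tail-to-tail genes in 9 and 26 of 73, with a median of -0.21. In the 23 pairs with the partner inside, 2 rose and 11 fell (median -0.35). The differences between arrangements were not tested. After quantile normalization the rises and falls were 21 and 45 in head-to-head, 4 and 10 in divergent, 19 and 19 in enclosed, 4 and 5 in enclosing and 21 and 15 in tail-to-tail genes, so in tail-to-tail genes the balance turned. Genes without any shared exon base had 9 rises and 36 falls among 87, and the others 26 and 123 among 273, with medians of -0.30 and -0.32. Partners had medians of -0.05 in head-to-head, 0.04 in divergent and -0.09 in tail-to-tail pairs. The median was 0.00 for partners with the antisense gene inside them and -0.01 for partners inside the antisense gene.

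**Figure D5:**
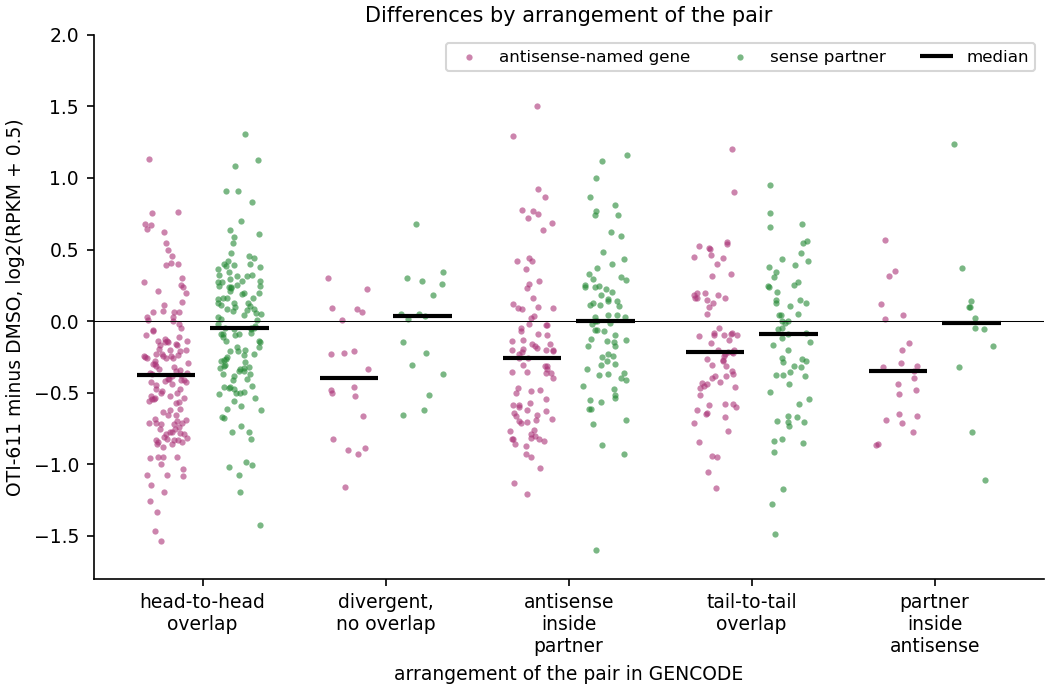
Log2 difference (OTI-611 minus DMSO, log2 of RPKM + 0.5) of antisense-named genes and of the partners tested, 1 point per gene, by arrangement of the pair, with a bar at each median. The 4 convergent pairs and the same-strand pair are not drawn; in the 5 arrangements drawn, antisense medians run from -0.40 in divergent pairs to -0.21 in tail-to-tail pairs, and each lies below that of the partners.

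In the 84 pairs with overlapping promoter windows, such as the 4 printed above, 4 antisense genes rose (4.76%), 39 fell (46.4%) and 41 did not pass the test, a share of falls near the 44.0% of all members. These counts were 10 and 25 after quantile normalization and 7 and 33 after rescaling. Among the 77 of these pairs with both genes tested, 34 partners rose and 26 fell, against 98 (33.1%) and 116 (39.2%) of all 296 tested. Both genes fell in 16 pairs, both rose in 3, the antisense gene fell with a rising partner in 13 and rose with a falling partner in 1, the TRIM52 pair. The log ratio fell in 34 of the 77 and rose in 4. It was called in 38 of the 77, against 151 of all 300 antisense-named pairs tested, where 115 fell and 36 rose. Of all opposite-strand pairs tested, 54.8% were called. Median log2 differences in the pairs with overlapping windows were -0.33 for the antisense genes and 0.05 for the partners. These windows were rich in G and C, from 53.3% to 82.0%.

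Of the motifs searched, TGATGNAA and CCAAT were in a smaller share of members than of all symbols with a window, and TGACNNNGC in a larger share. These differences were not tested. Each motif was searched on both strands, and the shares are of symbols with a RefSeq window, 27305 in all and 271 members. A symbol with several windows counted if any of them matched. By single window, 3.62% of all 35116 windows held TGATGNAA, 34.6% CCAAT, 7.71% TGANTCA and 13.3% TGACNNNGC. Members were not counted by single window. The C/EBP-ATF response element core TGATGNAA was in 2.21% of members and 4.46% of all symbols, and in 0 of the 26 rising members. The ER stress element was in 0 members and 0.0916% of all. The AP-1 motif TGANTCA was in 8.12% of members and 9.37% of all, in 4 of 26 rising members (15.4%) and in 10 of 121 falling members (8.26%). It is in the CD63-AS1 window printed above. The antioxidant response element core TGACNNNGC was in 19.6% of members and 16.1% of all, in 2 of 26 rising and 28 of 121 falling members. The NF-Y box CCAAT, which is also the first part of the ER stress element, was in 31.7% of members and 39.7% of all.

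Genes named as divergent transcripts, with symbols ending in -DT, also fell more often than they rose. Of 502 such rows, 166 were tested, and 7 rose (4.22%) and 80 fell (48.2%), while 79 missed the threshold, against 23.2% rising and 40.4% falling of all genes tested. Their median log2 difference was -0.44. Under 3 RPKM, 10.4% of all genes tested rose and 39.4% fell. Long non-coding genes of that range other than the members had 7.47% and 44.7%. The -DT genes were not split by level. Without DMSO 3, 12 rose and 51 fell, after quantile normalization 16 rose and 49 fell, and after rescaling 10 rose and 62 fell. NECTIN1-DT measured 5.36 and 5.42 RPKM in DMSO and 1.49, 1.64 and 1.47 in OTI-611, a 3.52-fold fall (limma adjusted p = 1.67e-05). BAIAP2-DT and CNN3-DT fell 2.40-fold and 2.01-fold. ITGB1-DT rose, from 2.05 and 1.94 to 5.81, 5.89 and 6.14 (limma adjusted p = 1.28e-05). Of 13 intronic transcripts tested, with symbols ending in -IT and a digit, 2 rose and 3 fell. At the GABPB1 locus GABPB1-IT1 measured 1.63 and 1.22 in DMSO and 0.633, 0.637 and 0.706 in OTI-611, near the levels of GABPB1-AS1. The single overlapping transcript tested, ANXA2R-OT1, measured 7.90 and 7.64 against 5.10, 4.47 and 4.40.

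Factors known to limit antisense and promoter-upstream RNA changed in both directions. For comparison, 23.2% of all genes tested rose and 40.4% fell, and of those of at least 3 RPKM 30.3% rose and 40.9% fell. Of 18 genes of the nuclear exosome and its cofactors, 7 rose and 7 fell (38.9% each), 4 missed the threshold and the median log2 difference was 0.02. These counts were 2 and 5 without DMSO 2, 5 and 3 without DMSO 3, 8 and 4 after quantile normalization and 9 and 4 after rescaling. ZFC3H1, which links polyadenylated nuclear RNA to the exosome, measured 11.2 and 11.5 RPKM in DMSO and 6.57, 6.03 and 5.68 in OTI-611 (log2 difference -0.85, limma adjusted p = 7.64e-05). The helicase MTREX fell 1.30-fold, the core subunit EXOSC6 fell 1.52-fold and EXOSC8 rose 1.29-fold. Of 14 Integrator genes, whose complex ends non-coding and paused transcripts early, 2 rose (14.3%) and 6 fell (42.9%). The other 6 missed the threshold and the median was -0.07. After rescaling to the median log ratio 5 rose and 6 fell (median 0.04), and after quantile normalization 4 rose and 6 fell. INTS8 fell 1.51-fold and INTS10, INTS5 and INTS13 fell 1.40, 1.37 and 1.34-fold. Of 7 cap-binding and termination genes with a row, 1 rose (14.3%), 4 fell (57.1%) and 2 missed the threshold. PCF11, a termination factor that binds the RNA polymerase II tail, measured 11.4 and 10.2 in DMSO and 3.23, 3.52 and 2.81 in OTI-611, a 3.39-fold fall (limma adjusted p = 2.88e-05). SRRT, known as ARS2, measured 79.2 and 77.1 against 41.6, 44.7 and 47.1, and NCBP1, the large cap-binding subunit, and CPSF3, the cleavage endonuclease, fell 1.44-fold and 1.24-fold. These lists share the libraries of the members, and their part in the antisense differences was not tested.

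Summed RPKM per library ran from 304260 to 314127 in the 5 libraries. The epithelial markers KRT8, KRT18, KRT19, EPCAM and CDH1 were all present, with sums of 509 to 529 RPKM in DMSO and 471 to 517 in OTI-611. Falls were called in 2 of the 5, against 40.4% of all genes tested. CDH1, which encodes E-cadherin, measured 4.39 and 4.80 in DMSO and 1.45, 1.46 and 1.71 in OTI-611 (log2 difference -1.32, limma adjusted p = 5.04e-05), and KRT8, a keratin, 153 and 146 against 104, 103 and 109 (log2 difference -0.51, limma adjusted p = 6.26e-05). Their part in the antisense differences was not tested. KLK3, KLK2 and TMPRSS2, 3 of the 5 prostate luminal and androgen markers listed, were at or near 0. The rest of that list is not reported here, so the list as a whole is not described. Fibroblast markers summed to 0.673 and 0.745 in DMSO and 0.163 to 0.190 in OTI-611, and leukocyte and endothelial markers to at most 0.180 and 0.0486 in any library. CHD1L, the protein target, measured 0.662 and 0.691 in DMSO and 0.585, 0.792 and 0.546 in OTI-611, and its groups overlapped (limma adjusted p = 0.781).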

How the data were processed

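RNA-seq values of 6 DU145 libraries, 3 per treatment by their labels, were used. Per the labels' protocols, total RNA was extracted with a miRNeasy kit, mRNA was amplified by Geo-seq and TruePrep libraries were made. Tools listed, with no roles, in the submitters' processing notes are TopHat2 2.0.9, HTSeq, Cufflinks 2.1.1, CASAVA 1.7 and FastQC; mm10, the build listed, is a mouse build, though the gene IDs are human, so the build used is not established. The authors deposited 5 columns taken as RPKM, which FPKM would resemble, and DMSO 1 as whole numbers, treated as a score. The members and lists were chosen with earlier results of these data known. limma 3.58.1 (R 4.3.3) was fitted to log2(value + 0.5) of 5 libraries for genes whose mean reached 0.5 (empirical Bayes with trend, two-sided, Benjamini-Hochberg over all genes, threshold 0.05), and to pair log ratios over opposite-strand pairs overlapping or within 5 kb. The scripts were tested on simulated data. Read depth was estimated from steps of low values, 67.4% to 68.5% of which were whole within 0.05 reads; amplified reads are not independent molecules. Whether a shared replicate number marks paired libraries is not established, and the main fit was unpaired. Named genes were drawn from members of at least 3 RPKM (those of at least 10 described singly), the 10 largest rises and falls with groups that do not overlap, 10 opposite pairs, their partners, rows next to the limit, and 4 genes per other list; HOXC9, CDH1 and KRT8 were chosen after their values were seen. Alternatives were other pseudocounts, filters, scalings, a replicate block, DMSO 1 included and each library left out. A marker gene of the fixed lists is not reported here.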

Additional observations from a re-analysis of the deposited data

How the results depend on the processing

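Of 1382 values of named genes under the alternatives, 1302 kept their direction and their side of the threshold, 59 lost the call, 8 gained one and 13, all of uncalled genes, changed sign. Those 13 were CHD1L at 0.36 with DMSO 1 added, 0.20 after quantile normalization, 0.0632 after rescaling to the median log ratio and -0.14 to 0.00881 with a library left out; HOXB-AS1 at 0.00955, 0.19, 0.0382 and -0.28 to 0.13 in the same order; LAMC1 at 0.0446 after rescaling; THAP9 at -0.0260 with the replicate block and -0.0260 to 0.0575 with a library left out; and WARS2 at -0.0322 to 0.0860 with a library left out. With decimals dropped ETV5-AS1, GLIPR1, GTF3C2-AS1, VLDLR and ZNF775-AS1 were among those that lost the call (limma adjusted p = 0.0713 to 1). Rising and falling members numbered 23 and 100 with a mean of at least 1, which leaves fewer genes, 18 and 104 with the decimals of all 6 libraries dropped, and 70 and 101 after quantile normalization. Pairs changing in the same direction numbered 51 with a mean of at least 1, 47 with DMSO 1 added, 41 with decimals dropped and 48 to 70 with a library left out. Pairs in opposite directions numbered 27 without a filter, 27 with a mean of at least 1, 29 with DMSO 1, 24 with decimals dropped and 19 to 38 with a library left out. Log ratios were called in 89 pairs with a mean of at least 1. Apart from the filters, the cause of these shifts was not tested. Between 118 and 194 of the 194 called members kept their call under an alternative, and 0 reversed. The replicate block gave 30 rising and 143 falling members, 69 and 34 pairs in the same and opposite directions and 133 called log ratios. In that fit OTI-611 1 stands alone in its block, so the log2 differences equal those without OTI-611 1. Whether the numbers pair the libraries is not established. Same-numbered libraries correlated at 0.25, 0.17 and 0.08, and other-numbered ones at -0.29 to 0.15. Each DMSO library correlated best with the OTI-611 library of its number, but OTI-611 3 correlated best with DMSO 2. A member of few reads can differ without being called.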
